A study of Homo sapiens with 23 samples.

Results

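The 9 genes described here belong to the major histocompatibility complex (MHC) class I pathway and were followed through 5 HCT116 cell lines that differ in their argonaute genes. They are the heavy chains HLA-B, HLA-C, HLA-E and HLA-F, the light chain B2M, the peptide loading genes TAP1, TAP2 and TAPBP, and the transcription factor gene NLRC5. They were chosen by symbol, all 9 had a row among the 57875 genes listed, and all 9 were among the 22842 genes that passed the filter on low counts.

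The study asked how steady-state RNA changes when argonaute (AGO) proteins, which carry microRNAs (miRNAs) to their targets, are removed. HCT116 is an established human colon cancer cell line, and its wild-type cells were compared with a line lacking AGO1, a line lacking AGO2, a double knockout (AGO1/2) and a triple knockout (AGO1/2/3) made from it by CRISPR editing. Each line was sequenced as 3 replicates of whole transcriptome RNA, grown in the same medium with no other treatment. The 8 libraries of AGO2 crosslinking and immunoprecipitation were not analysed here. Each genotype came from 1 edited line, and what the editing did and what that line's history did cannot be told apart. The study's methods call the replicates biological and do not say how separate their cultures were, and p-values measure only the spread between these samples.

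Class I molecules show fragments of the cell's own proteins to CD8 T cells and to natural killer cells. Peptides cut by the proteasome are pumped into the endoplasmic reticulum by the transporter made of TAP1 and TAP2, tapasin (TAPBP) holds the transporter next to empty class I molecules, and a heavy chain paired with beta-2 microglobulin (B2M) carries the peptide to the surface. HLA-B and HLA-C are the polymorphic classical heavy chains, whereas HLA-E and HLA-F are less variable and are read by receptors of natural killer cells. NLRC5 has no DNA binding domain of its own and acts on class I promoters through factors bound at their X and Y boxes, and interferon raises transcription of the whole pathway through its JAK-STAT signalling and IRF proteins.

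The promoter elements named above are shown first, because the results below are read across genes that carry different ones. RefSeq promoter windows on GRCh38.p14, 300 bases each with 250 before the start and 50 after it, were found for 7 of the 9 members, with 2 windows for TAP1; HLA-E and NLRC5 had no entry. In HLA-B and HLA-C the short core of a cyclic AMP response element (TGACG, the core of the X2 box) was followed by a Y box core (CCAAT, read here on the other strand), and both are in capitals. In HLA-C a further CCAAT on the gene's own strand lies between them.
HLA-B, chr6:31357256-31357285, minus strand: TGACGcgtccccacttcccactcccATTGG
HLA-C, chr6:31272168-31272197, minus strand: TGACGcgtccCCAATtcccactcccATTGG
The core of an interferon response element, GAAANNGAA searched on both strands, was found in 5 of the 7 members and is in capitals below. In B2M, TAP1 and TAPBP 2 matches overlap.
HLA-F, chr6:29723268-29723297, plus strand: ctccccagagtTTCTCTTTCtctcccaacc
B2M, chr15:44711365-44711394, plus strand: gactctaaGAAAAGGAAACTGAAaacggga
TAP1, chr6:32853816-32853845, minus strand: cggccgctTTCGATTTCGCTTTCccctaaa
TAP2, chr6:32838779-32838808, minus strand: gctggggaagcGAAAGCGAAagctgcccga
TAPBP, chr6:33314077-33314106, minus strand: ctttggagGAAAGTGAAAGTGAAaggagga
Of all 35116 promoter windows, 8.11% held GAAANNGAA, 34.6% held CCAAT and 24.6% held TGACG on either strand. CCAAT was found in 5 of the 7 members and TGACG in 4. A match is a description of these letters, and binding was not measured.

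Because argonaute proteins are guided by miRNA seeds (bases 2 to 8), the 3′ untranslated regions of the 9 members were searched for matches to 6 seeds carried by 9 miRNAs. These were the miRNAs for which the study's methods list quantitative PCR assays, and the miR-148/152 family, which is known to bind class I transcripts. The study also ranked miRNAs by their reads in AGO2 immunoprecipitates, and that ranking was not used to choose these 9. The seed is in capitals in the 6 mature RefSeq sequences that represent them.
hsa-let-7a-5p: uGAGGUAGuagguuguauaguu
hsa-miR-21-5p: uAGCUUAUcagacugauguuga
hsa-miR-27a-3p: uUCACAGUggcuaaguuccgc
hsa-miR-29a-3p: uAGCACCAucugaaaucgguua
hsa-miR-125b-5p: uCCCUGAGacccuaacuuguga
hsa-miR-148a-3p: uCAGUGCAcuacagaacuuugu
In the canonical transcripts of GENCODE 44, 5 of the 9 members held at least 1 match and 12 matches were found in all. The share of all transcripts with a match to any of the 6 seeds was not counted, so 5 of 9 cannot be set against a background. The shared seed of miR-148a, miR-148b and miR-152 matched HLA-B, HLA-C and NLRC5, and 13.8% of 19228 protein-coding transcripts held the same match. The matched bases are in capitals within each site, on GRCh38.
HLA-B, chr6:31354017-31354043, minus strand: tgtctcaactttacgTGCACTGagctg
HLA-C, chr6:31268894-31268920, minus strand: gtctcaaattcatggTGCACTGagctg
NLRC5, chr16:57083093-57083119, plus strand: aggggagagtgtccaTGCACTGaccag
The miR-125b seed matched TAP2, TAPBP and NLRC5 (14.7% of all transcripts), the miR-29a seed matched TAP2 and TAPBP (14.0%), the miR-27a seed matched HLA-B (15.7%) and the miR-21 seed matched NLRC5 (8.68%). The let-7 seed matched none of the 9 members (9.71% of all transcripts). HLA-E, HLA-F, B2M and TAP1 held no match to the 6 seeds. Their 3′ untranslated regions had 1448, 121, 553 and 370 bases, in a range from 121 to 3491 bases (TAP2) over the 9 members.

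Total estimated counts ranged from 27709971 to 45271146 per library with a median of 30701840, and the 3 AGO2 knockout libraries were among the deepest. AGO1 transcripts fell from 131 ± 20.4 CPM (TMM-scaled counts per 1000000, SD, n = 3) in wild type to 32.4 to 36.6 CPM in the 3 lines without AGO1, and AGO3 transcripts fell from 112 ± 16.0 to 51.8 ± 5.68 CPM in the triple knockout. AGO2 transcripts were at 407 ± 45.6 CPM in wild type, 286 ± 26.3 CPM in the AGO2 knockout and 538 ± 19.9 CPM in the triple knockout, and a transcript total cannot show whether an edited gene still makes protein. The study sequenced the edited DNA and reported Western blots in which the targeted proteins were absent from the knockout lines. Epithelial markers KRT8 and KRT18 were high in every library, EPCAM and CDH1 were lowest in the triple knockout (63.6 and 8.57 CPM, against 213 and 97.7 CPM in wild type), and the leukocyte markers CD3E and CD14 never passed 0.0368 and 0.146 CPM. The leukocyte marker PTPRC lay between 0.787 and 1.68 CPM in every library, while LYZ, another one, averaged 0.125 CPM in wild type, 3.18 CPM in the double and 7.51 CPM in the triple knockout, and its part in the results below was not tested. In RNA from whole cultures, fewer cells with a transcript and less of it per cell cannot be told apart. Column names of the 3 AGO2 knockout files contain the word quasi and those of the other 12 do not. Whether these 3 were quantified in another mode is not given in the sources used here. Such a difference could not be told apart from the AGO2 knockout.

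B2M was the most abundant of the 9 transcripts per kilobase of exon in every line, followed by HLA-C and HLA-E. In wild-type cells B2M stood at 61.1 ± 10.5 CPM per kilobase, HLA-C at 35.7 ± 1.6, HLA-E at 27.1 ± 1.70, HLA-B at 12.5 ± 1.76 and TAPBP at 9.75 ± 1.88 CPM per kilobase (SD, n = 3). TAP1 and TAP2 were nearly equal per kilobase at 4.38 ± 0.832 and 4.15 ± 0.414 CPM, HLA-F was at 1.03 ± 0.103 CPM and NLRC5 was at the bottom with 0.513 ± 0.026 CPM per kilobase. TAPBP overtook HLA-B in the AGO1/2 and AGO1/2/3 lines, at 15.8 ± 1.32 and 16.8 ± 0.379 CPM per kilobase against 13.6 ± 1.10 and 12.1 ± 2.26. The order depended on the length used. Per kilobase of the longest annotated transcript, TAPBP also exceeded HLA-B in the AGO2 knockout (16.2 against 13.6 CPM). By that length it exceeded HLA-E in the triple knockout (27.1 against 19.3 CPM). Class I heavy chains resemble one another and are highly polymorphic, so reads of one can be assigned to another and the split between HLA-B, HLA-C, HLA-E and HLA-F is uncertain.

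**Figure D1:**
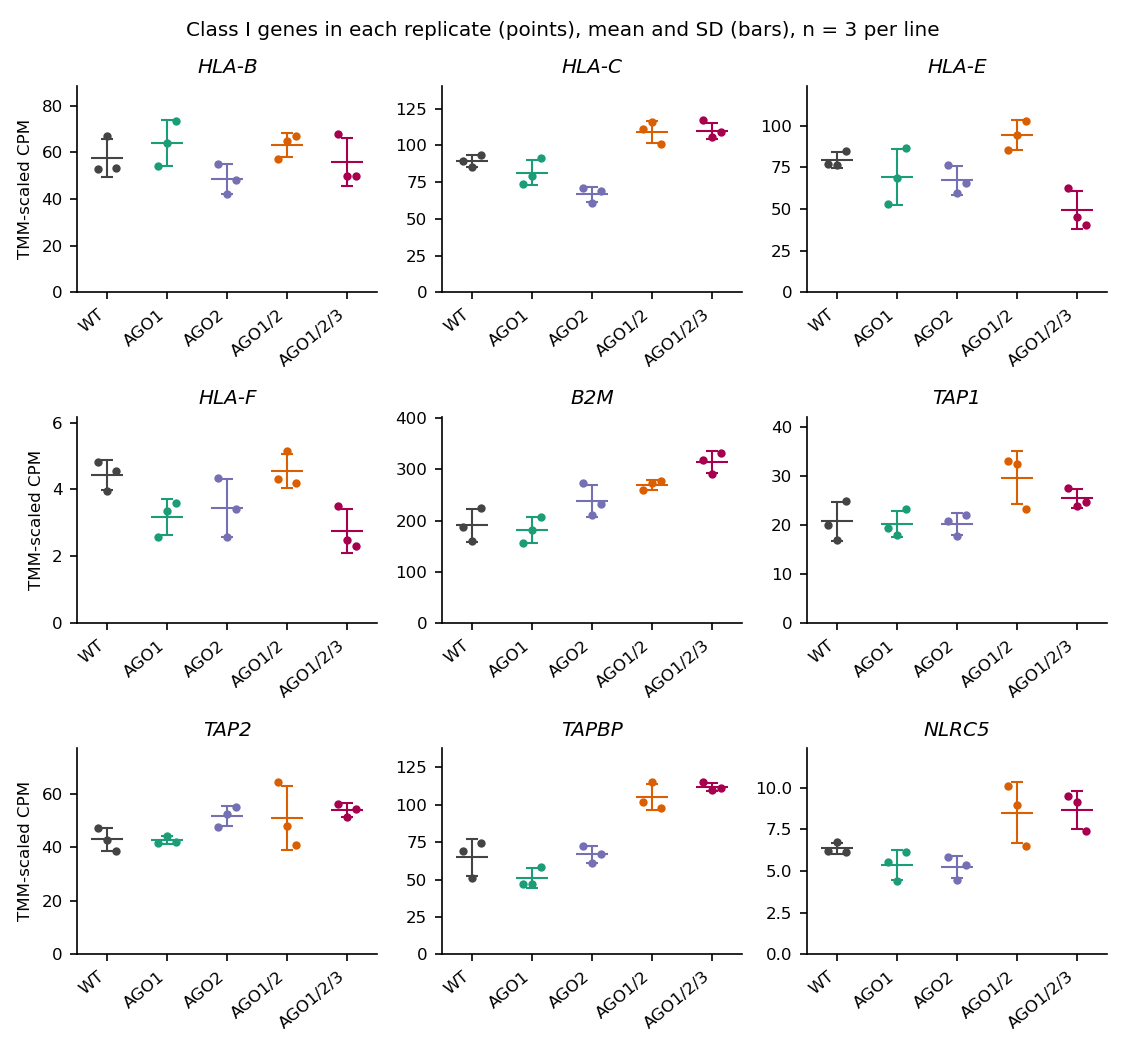
TMM-scaled CPM of the 9 class I genes (y axes from 0) in wild-type (WT) cells and the 4 knockout lines; points are the 3 replicates of a line, bars the mean and SD. TAPBP and B2M sat highest in the AGO1/2 and AGO1/2/3 lines, HLA-E and HLA-F dropped in AGO1/2/3, and HLA-B overlapped between most lines.

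HLA-C, a classical heavy chain at chr6:31268749-31272130 on the minus strand, was lower in the AGO2 knockout and higher in the triple knockout than in wild type. Its level was 89.6, 85.4 and 93.4 CPM in the wild-type replicates, 74.0, 79.3 and 91.1 CPM without AGO1 and 70.7, 61.0 and 68.8 CPM without AGO2. It was 111, 116 and 101 CPM without AGO1 and AGO2, and 117, 106 and 109 CPM without all 3. The AGO2 knockout replicates lay below every wild-type replicate and the double and triple knockout replicates lay above every one, while AGO1 knockout and wild type overlapped. By the quasi-likelihood test of edgeR, with p-values adjusted over all 22842 genes (Benjamini-Hochberg), HLA-C fell in the AGO2 knockout (log2 fold change −0.42 ± 0.10 SE, adjusted p = 0.0114) and rose in the triple knockout (0.30 ± 0.10, adjusted p = 0.0218). The double knockout missed the threshold against wild type (0.29 ± 0.10, adjusted p = 0.0562), and DESeq2 called it (0.28, adjusted p = 0.0374). The call in the AGO2 line was lost without AGO2 knockout replicate 2 (−0.37, adjusted p = 0.0576), and the call in the triple knockout was lost without wild-type replicate 1 or 2, AGO2 knockout replicate 3 or triple knockout replicate 1 or 3 (log2 values from 0.25, adjusted p up to 0.113) and with counts scaled by library total alone (0.16, adjusted p = 0.217).

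HLA-E, the ligand of the inhibitory NKG2A receptor, lay at chr6:30489509-30494194 and was lowest in the triple knockout. Wild-type replicates had 76.8, 76.1 and 85.0 CPM, AGO1 knockout replicates 52.9, 68.3 and 86.5 CPM, and AGO2 knockout replicates 76.6, 59.4 and 65.4 CPM. AGO1/2 knockout replicates had 85.2, 94.6 and 103 CPM and AGO1/2/3 knockout replicates 62.3, 45.4 and 40.1 CPM. The triple knockout lay below every replicate of wild type and of the double knockout, and the 3 AGO1 knockout replicates spread more widely than wild type and AGO2 knockout together. HLA-E fell by 0.69 on the log2 scale against wild type (SE 0.18, adjusted p = 0.00591) and by 0.93 against the double knockout (SE 0.18, adjusted p = 0.00141), to 62.2% and 52.3% of those lines.

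HLA-F, a weakly expressed nonclassical heavy chain at chr6:29722775-29738528, was likewise lower in the triple knockout. Wild-type replicates had 4.82, 3.95 and 4.55 CPM, AGO1 knockout replicates 2.58, 3.36 and 3.60 CPM, and AGO2 knockout replicates 4.34, 2.59 and 3.42 CPM. The AGO1/2 line had 4.32, 5.14 and 4.20 CPM and the AGO1/2/3 line 3.52, 2.49 and 2.30 CPM. Replicates of the triple knockout and of the AGO1 knockout lay below all wild-type replicates. Only the triple knockout was called against wild type (−0.67 ± 0.21, adjusted p = 0.0173), and it was called against the double knockout too (−0.71 ± 0.21, adjusted p = 0.0238). Without triple knockout replicate 2 or 3 the call against wild type was lost (−0.61, adjusted p = 0.0598, and −0.60, adjusted p = 0.0641). The antisense gene HLA-F-AS1 overlaps HLA-F at a mean of 3.81 CPM against 3.68 CPM for HLA-F, the libraries were stranded, and whether the counting used strand is not given in the sources used here.

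HLA-B, a classical heavy chain at chr6:31353872-31367067 on the minus strand, was called in none of the 8 comparisons. It had 52.7, 67.1 and 53.2 CPM in wild type, 53.9, 63.9 and 73.6 CPM without AGO1, and 55.0, 42.0 and 48.2 CPM without AGO2. The double knockout had 57.3, 64.7 and 67.0 CPM and the triple knockout 67.9, 49.8 and 49.8 CPM. Every knockout line overlapped wild type, and the difference nearest to the threshold was that between the double and the AGO2 knockout (0.38 ± 0.15, adjusted p = 0.0851), whose replicates did not overlap.

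B2M, the light chain shared by all class I molecules, lay outside the MHC at chr15:44711358-44718851 and was highest in the triple knockout. Its wild-type replicates had 188, 160 and 225 CPM, its AGO1 knockout replicates 157, 182 and 208 CPM, and its AGO2 knockout replicates 273, 212 and 233 CPM. The double knockout had 259, 273 and 277 CPM and the triple knockout 318, 291 and 332 CPM. Both combined knockouts lay above every wild-type replicate and the triple lay above every double knockout replicate, whereas both single knockouts overlapped wild type. B2M rose 1.41-fold in the double knockout (log2 0.50 ± 0.13, adjusted p = 0.0182) and 1.65-fold in the triple knockout (0.72 ± 0.13, adjusted p = 0.000548), and the step from double to triple was not called (0.22 ± 0.13, adjusted p = 0.281). The AGO2 knockout value was 0.33 ± 0.13 (adjusted p = 0.0952). The call in the double knockout was lost without wild-type replicate 1 or 2 or double knockout replicate 2 or 3 (adjusted p up to 0.0839 and log2 values from 0.37), while the call in the triple knockout was kept in all 15 such fits.

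TAPBP encodes tapasin, lay at chr6:33299694-33314284 on the minus strand, and showed the largest rise of the 9 genes in both combined knockouts. It had 69.0, 50.8 and 74.7 CPM in wild type, 46.8, 47.1 and 58.5 CPM without AGO1, and 72.4, 61.3 and 66.8 CPM without AGO2. The double knockout had 102, 115 and 97.7 CPM and the triple knockout 115, 110 and 111 CPM. All 6 replicates of the combined knockouts lay above all 9 replicates of the other lines, among which AGO1 and AGO2 knockout overlapped wild type but not each other. TAPBP rose 1.62-fold in the double knockout (0.69 ± 0.13, adjusted p = 0.00225) and 1.73-fold in the triple knockout (0.79 ± 0.13, adjusted p = 0.000232), and the AGO1 knockout missed the threshold (−0.35 ± 0.13, adjusted p = 0.125). Both calls held in every fit that left out 1 library. Library-total scaling made the AGO1 difference a call (−0.44, adjusted p = 0.0450), as did leaving out wild-type replicate 2 (−0.50, adjusted p = 0.0160).

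TAP1 and TAP2, the subunits of the peptide transporter, lie side by side at chr6:32845209-32853816 and chr6:32821833-32838739, both on the minus strand. TAP1 had 20.1, 17.1 and 25.0 CPM in wild type, 19.5, 18.1 and 23.3 CPM without AGO1, and 20.9, 17.8 and 22.1 CPM without AGO2. It had 33.1, 32.5 and 23.4 CPM in the double knockout and 27.7, 23.9 and 24.8 CPM in the triple knockout. Replicates 1 and 2 of the double knockout stood above every other library, and replicate 3 fell within the wild-type range. TAP1 rose in the double knockout (0.52 ± 0.16, adjusted p = 0.0362), a call kept without wild-type replicate 3, any AGO1 knockout replicate, AGO2 knockout replicate 2 or double knockout replicate 3 and lost in the other 9 of 15 fits that left out 1 library (log2 values from 0.38 to 0.66 over all 15, adjusted p up to 0.150). Its triple knockout value was 0.30 ± 0.16 (adjusted p = 0.154). PSMB9 overlaps TAP1 on the other strand at a mean of 2.85 CPM against 23.3 CPM for TAP1. TAP2 had 47.3, 42.8 and 38.7 CPM in wild type, 41.5, 44.2 and 41.8 CPM without AGO1, 47.6, 52.4 and 55.0 CPM without AGO2, 64.2, 47.8 and 40.9 CPM in the double knockout and 56.2, 51.3 and 54.4 CPM in the triple knockout. The AGO2 and triple knockout replicates lay above all wild-type replicates, and the double knockout spread across them. TAP2 was called in no comparison, with values against wild type of −0.02 to 0.33 and an adjusted p of 0.0643 in the triple knockout.

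NLRC5, the transactivator of class I genes, lay at chr16:56989485-57083531 and was, per kilobase of exon, the least abundant member in every line but the triple knockout, where HLA-F was lower (0.642 against 0.701 CPM per kilobase). Per kilobase of the longest annotated transcript, NLRC5 was lowest in every line (1.27 against 1.79 CPM for HLA-F in the triple knockout). It had 6.23, 6.73 and 6.12 CPM in wild type, 5.54, 4.38 and 6.17 CPM without AGO1, and 5.82, 4.49 and 5.37 CPM without AGO2. It had 10.1, 8.97 and 6.48 CPM in the double knockout and 9.52, 9.14 and 7.39 CPM in the triple knockout. Triple knockout replicates lay above wild type and AGO2 knockout replicates below it, and 1 double knockout replicate, the third, was within the wild-type range. NLRC5 rose 1.37-fold in the triple knockout (0.45 ± 0.17, adjusted p = 0.0475), and the double knockout was not called (0.42 ± 0.17, adjusted p = 0.113). The triple knockout call was kept without double knockout replicate 1 or 3 and lost in the other 13 of 15 fits that left out 1 library (0.36 to 0.51 over all 15, adjusted p up to 0.175) and with DESeq2 (0.44, adjusted p = 0.0518), and the double knockout was called without its own replicate 3 (0.58, adjusted p = 0.0307).

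Against wild type, the single knockouts gave 1 call among the 9 genes, HLA-C in the AGO2 knockout, 3 of them were higher in the double knockout, and 4 were higher and 2 lower in the triple knockout. In the AGO1 knockout none of the 9 was called in either direction by edgeR or by DESeq2, with 2 under an unadjusted p of 0.05 (HLA-F and TAPBP, both below wild type), where 3.17% of all genes tested were called higher and 5.50% lower. In the AGO2 knockout 0 were called higher, with 1 (B2M) under an unadjusted p of 0.05 and 0 by DESeq2, and 1 (HLA-C) was called lower, beside 8.55% and 10.8% of all genes. In the double knockout B2M, TAP1 and TAPBP were called higher (3 of 9, and 4 of 9 with DESeq2, which adds HLA-C, beside 8.37% of all genes) and 0 lower with edgeR, with DESeq2 and at an unadjusted p of 0.05 (8.35% of all genes). In the triple knockout 4 of 9 were called higher (B2M, TAPBP, HLA-C and NLRC5, and 3 of 9 with DESeq2, which leaves out NLRC5, beside 20.3% of all genes) and 2 of 9 lower (HLA-E and HLA-F with both tools, beside 19.8%). The number called higher was 2 in 9 of 23 alternative fits, and 2 of 9 is near the 20.3% of all genes. NLRC5 kept its call in 4 of 24 alternatives and HLA-C in 14 of 23. The share called lower was near that of all genes. The median log2 fold change of the 9 genes was −0.13 and −0.24 in the AGO1 and AGO2 knockouts and 0.29 and 0.30 in the double and triple knockouts, and that of all genes tested was −0.01, −0.02, 0.01 and −0.01. Among the sequences shown above, GAAANNGAA was found in HLA-F, which fell in the triple knockout. It was also found in B2M and TAPBP, which rose there, and in TAP1 and TAP2, which were not called there. Of the genes called higher there, TAPBP, HLA-C and NLRC5 held matches to the 6 seeds and B2M held none. HLA-E and HLA-F, called lower there, held none. Of those not called there, HLA-B and TAP2 held matches and TAP1 held none. The part of these sequences in the changes was not tested. The untranslated regions searched differed in length, and no background was counted for a match to any of the 6 seeds. The 4 comparisons with wild type share its libraries.

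**Figure D2:**
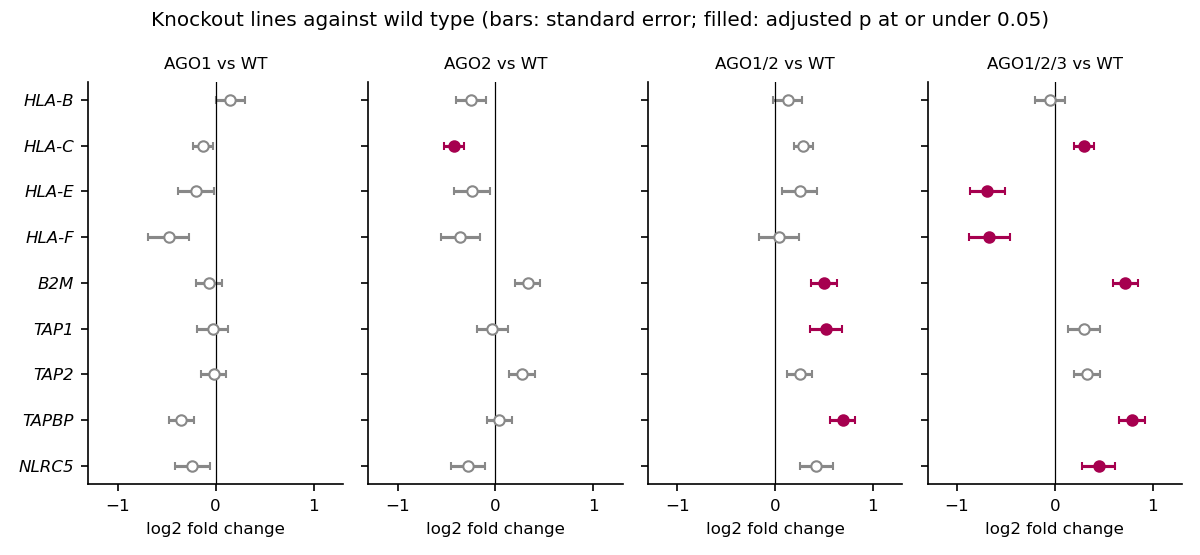
Log2 fold change of the 9 class I genes in each knockout line against wild type (x axes), with standard errors as bars; filled points have an adjusted p at or under 0.05. No point is filled for the AGO1 knockout, 1 for AGO2, 3 for AGO1/2 and 6 for AGO1/2/3.

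Between knockout lines, the double knockout had higher levels of HLA-C, TAP1, TAPBP and NLRC5 than either single knockout, and the triple knockout had lower levels of HLA-E and HLA-F than the double. The double knockout exceeded the AGO1 knockout in 5 of 9 genes, beside 11.5% of all genes called higher, and 0 were lower with either tool or at an unadjusted p of 0.05, beside 7.95%. These 5 were TAPBP (1.04 ± 0.13, adjusted p = 5.63e-05), NLRC5 (0.66 ± 0.17, adjusted p = 0.0132), B2M (0.57 ± 0.13, adjusted p = 0.00732), TAP1 (0.55 ± 0.16, adjusted p = 0.0237) and HLA-C (0.43 ± 0.10, adjusted p = 0.00611). TAPBP doubled from 50.8 ± 6.66 to 105 ± 8.80 CPM (2.06-fold, SD, n = 3). TAP1 and NLRC5 lost this call without AGO1 knockout replicate 2 or double knockout replicate 1 or 2, and TAP1 also without AGO1 knockout replicate 1 (TAP1 from 0.44, adjusted p up to 0.123, and NLRC5 from 0.50, adjusted p up to 0.0813).

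Compared with the AGO2 knockout, the double knockout was higher in 4 of 9 genes, beside 12.8% of all genes, and lower in 0 with either tool or at an unadjusted p of 0.05, beside 11.1%. HLA-C rose most (0.71 ± 0.10, adjusted p = 0.000133), followed by NLRC5 (0.70 ± 0.17, adjusted p = 0.00837), TAPBP (0.65 ± 0.13, adjusted p = 0.00284) and TAP1 (0.55 ± 0.16, adjusted p = 0.0202). HLA-E missed the threshold (0.49 ± 0.18, adjusted p = 0.0558), and it was called with library-total scaling (0.52, adjusted p = 0.0392), with no filter, with at least 10 counts in every library, in a fit of only the lines compared (0.48, adjusted p = 0.0148) and in 6 of 15 fits that left out 1 library. B2M was nearly level between these 2 lines (0.17 ± 0.13, adjusted p = 0.381). TAP1 lost its call without AGO2 knockout replicate 2 (0.47, adjusted p = 0.0922) and without double knockout replicate 1 (0.47, adjusted p = 0.0691) or 2 (0.49, adjusted p = 0.0843). From double to triple knockout, 0 of 9 were called higher with either tool or at an unadjusted p of 0.05, beside 11.9% of all genes, and 2 of 9 were called lower, HLA-E and HLA-F, beside 10.0% of all genes. HLA-F lost that call without double knockout replicate 2 or triple knockout replicate 2 or 3 (adjusted p up to 0.0935).

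The change that went with AGO2 loss differed by AGO1 status for 4 of the 9 genes, beside 11.5% of all genes in the same direction, and 0 genes differed in the other direction with either tool or at an unadjusted p of 0.05, beside 8.26%. The test was the interaction contrast, the change from AGO1 knockout to double knockout minus that from wild type to AGO2 knockout. TAPBP changed by 1.04 in cells without AGO1 and by 0.04 in cells with it, a difference of 1.0 ± 0.19 (adjusted p = 0.00213). NLRC5 changed by 0.66 and −0.28 (difference 0.95 ± 0.25, adjusted p = 0.0144) and HLA-C by 0.43 and −0.42 (difference 0.85 ± 0.14, adjusted p = 0.000801). HLA-F changed by 0.52 and −0.36, and its difference of 0.88 ± 0.29 (adjusted p = 0.0436) was kept without wild-type replicate 2, AGO1 knockout replicate 3, AGO2 knockout replicate 1 or triple knockout replicate 1 or 3 and lost in the other 10 of 15 fits that left out 1 library (0.71 to 1.10 over all 15, adjusted p up to 0.113). B2M (0.24 ± 0.19, adjusted p = 0.410) and TAP2 (−0.00 ± 0.19, adjusted p = 0.991) were not called. This contrast uses the AGO2 knockout libraries, whose column names alone contain the word quasi, so that a different quantification mode could not be told apart from it.

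**Figure D3:**
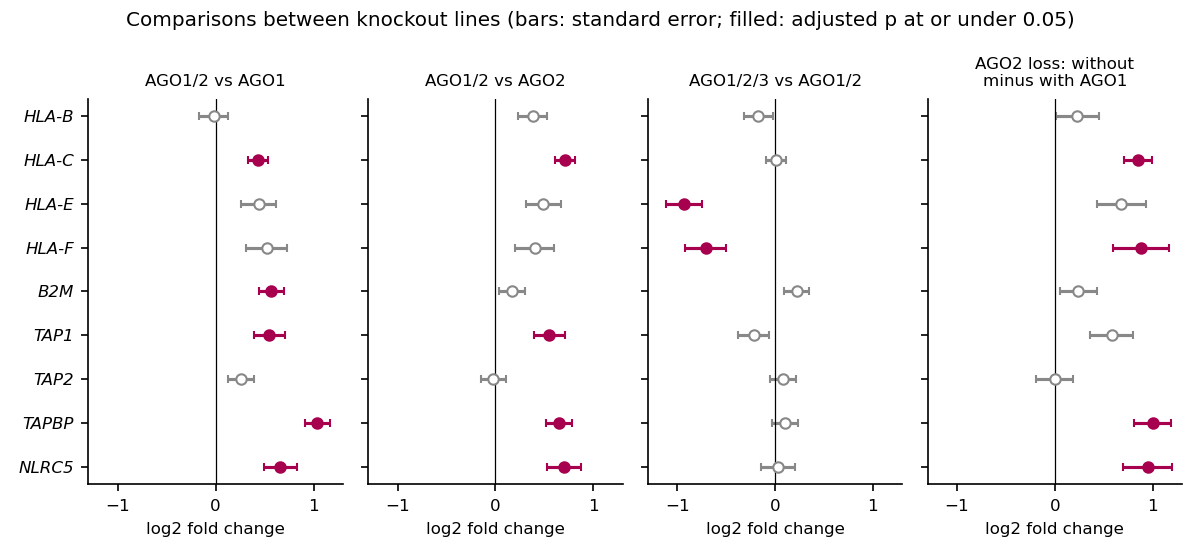
Log2 differences of the 9 class I genes between knockout lines (x axes, standard errors as bars, filled points with an adjusted p at or under 0.05); the panel on the right shows how much the change with AGO2 loss differed between cells without and with AGO1. HLA-E and HLA-F were the filled points for AGO1/2/3 against AGO1/2, and TAPBP, NLRC5, HLA-C and HLA-F those on the right.

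Of the 9 genes, 7 lie in the MHC region of chromosome 6, where more neighbouring genes were called lower than higher in the triple knockout. Among 129 other protein-coding genes tested within chr6:28722775-34314284, 9 were called higher and 57 lower in the triple knockout (all genes 20.3% and 19.8%), with a median of −0.32 against −0.01 over all genes. In the double knockout 6 were higher and 27 lower (all genes 8.37% and 8.35%), with a median of −0.10 against 0.01. In the AGO1 knockout 2 were higher and 30 lower (3.17% and 5.50%), and in the AGO2 knockout 5 and 23 (8.55% and 10.8%). HLA-E and HLA-F shared the sign of the neighbours' median in the triple knockout, and TAPBP and HLA-C did not. The part of the region in these values was not tested.

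ERAP1, ERAP2, SPPL2A and the chaperone gene CALR, the last named after its values were seen, rose in both combined knockouts. Of 11 loading and trimming genes tested, TAP1, TAP2 and TAPBP among them, 6 rose in the double (TAP1 and TAPBP included, all genes 8.37%) and 5 in the triple knockout (TAPBP included, all genes 20.3%) and 0 fell in either, with a list median of 0.33 in both. ERAP2 and CALR were called higher in the AGO2 knockout too, 2 of the 11 beside 8.55% of all genes. ERAP2 averaged 5.72 CPM there against 3.2 CPM in wild type, and CALR 599 against 401 CPM. The median of all genes, 0.01 in the double and −0.01 in the triple knockout, stands beside every list median below. ERAP1 and ERAP2, the aminopeptidases that trim peptides in the endoplasmic reticulum, rose most in the triple knockout. ERAP1 had 11.8, 12.9 and 10.9 CPM in wild type and 33.7, 33.6 and 37.0 CPM in the triple knockout, with no overlap (1.55 ± 0.13, adjusted p = 2.23e-07), and ERAP2 had 3.41, 2.52 and 3.68 against 8.91, 10.6 and 10.5 CPM (1.64 ± 0.19, adjusted p = 5.19e-06). SPPL2A, an intramembrane protease, rose by 0.71 ± 0.10 (adjusted p = 5.45e-05). Of 4 tested genes of the immunoproteasome and its activator, PSME1 and PSME2 rose in the double knockout (0.67 ± 0.16 and 0.42 ± 0.13, adjusted p = 0.00807 and 0.0341, beside 8.37% of all genes) and only PSME1 was called in the triple knockout (0.43 ± 0.16, adjusted p = 0.0394, beside 20.3%). The share in the triple knockout was near that of all genes. PSMB10, a catalytic subunit of the immunoproteasome, was called higher in the AGO2 knockout alone among the lines compared with wild type (0.76 ± 0.23, adjusted p = 0.0360). Of 4 genes listed with the constitutive proteasome, the single call against wild type was PSME3 in the AGO2 knockout (0.57 ± 0.17, adjusted p = 0.0323, beside 8.55% of all genes).

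Ligands of NKG2D, the activating receptor of natural killer cells, resemble class I heavy chains and are shown on stressed cells. Of 12 class I-like genes tested, 6 rose in the double knockout and 0 fell (all genes 8.37% and 8.35%), and 6 rose and 1 fell in the triple knockout (20.3% and 19.8%), with list medians of 0.67 and 0.78. In the AGO2 knockout 1 (MICB) rose and 2 (FCGRT and RAET1L) fell (all genes 8.55% and 10.8%). In the AGO1 knockout 1 (RAET1E) rose and 0 fell (3.17% and 5.50%). MICB averaged 32.5 CPM in the AGO2 knockout against 16.4 CPM in wild type, and RAET1L 0.35 against 0.945 CPM. MICB had 18.1, 7.65 and 23.6 CPM in wild type and 48.1, 54.1 and 59.0 CPM in the triple knockout, and MICA had 12.2, 9.59 and 14.2 against 29.9, 30.1 and 34.6 CPM, so that neither overlapped. MICB rose by 1.71 ± 0.34 (adjusted p = 0.000787), RAET1L by 1.51 ± 0.28 (adjusted p = 0.000509), MICA by 1.39 ± 0.22 (adjusted p = 0.000144) and ULBP2 by 1.24 ± 0.15 (adjusted p = 1.10e-05). MICA and MICB lie in the MHC region described above, where the neighbours' median was negative. MR1, which presents vitamin metabolites, was the gene that fell in the triple knockout.

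Most interferon-stimulated genes outside the class I pathway rose in the double knockout, and 8 of the list were lower in the triple than in the double knockout. Of 24 such genes tested, 16 rose and 1 (GBP2) fell in the double knockout (all genes 8.37% and 8.35%) with a median of 1.49, and 13 rose and 2 (GBP2 and IFITM1) fell in the triple knockout (20.3% and 19.8%) with a median of 0.57. In the AGO1 knockout 1 rose and 1 fell (all genes 3.17% and 5.50%), and in the AGO2 knockout 1 rose and 0 fell (8.55% and 10.8%). Against the double knockout, the triple knockout was higher in 1 (SAMD9L) and lower in 8, beside 11.9% and 10.0% of all genes. The 8 were IFI35, OAS1, IFI6, BST2, OASL, IFI27, IFITM1 and ISG15, which are named here after their values were seen. IFI6 had 6.48, 2.93 and 6.24 CPM in wild type, 67.4, 61.3 and 15.7 CPM in the double knockout and 10.7, 12.1 and 13.6 CPM in the triple knockout. Double knockout replicate 3 was the lowest of its line for 20 of the 24 genes and for 6 of the 9 members. The median difference from the wild-type mean over the 24 genes was 1.89, 1.57 and 0.66 in replicates 1, 2 and 3 of that line (log2 of CPM plus 0.1). Other lines had such a library too. AGO2 knockout replicate 2 was lowest of its line for 18 of the 24 genes and 8 of the 9 members. For AGO1 knockout replicate 1 these numbers were 15 and 7, and for wild-type replicate 2 they were 12 and 6. The median differences of these 3 libraries were −0.17, −0.12 and −0.18. Without double knockout replicate 3, 15 of the 24 were called higher in the double knockout with a median of 1.83, and 3 of the 9 members were, TAP1, TAPBP and NLRC5. B2M lost its call in that fit (0.48, adjusted p = 0.0542) and NLRC5 gained one. Fits that left out 1 library called 1204 to 1953 of all genes higher in this line, against 1913 with every library. SAMD9L, an antiviral gene, had 0.157, 0.0319 and 0.0301 CPM in wild type and 4.95, 3.22 and 4.13 CPM in the triple knockout (adjusted p = 2.09e-07). Its paralog SAMD9 rose by 2.11 ± 0.30 (adjusted p = 4.09e-05) and IFI44 by 2.59 ± 0.42 (adjusted p = 0.000146) in the triple knockout, and GBP2, which averaged 0.456 CPM in wild type, averaged 0.0319 CPM there (adjusted p = 0.00134).

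Receptors and signal transducers of interferon were called higher in 8 of 13 genes in the triple knockout and 1 lower (all genes 20.3% and 19.8%), and in 4 and 0 in the double knockout (8.37% and 8.35%). SOCS1, a feedback inhibitor of JAK kinases, rose most (2.93 ± 0.27, adjusted p = 6.45e-07), followed by the kinase gene JAK2 (1.25 ± 0.11, adjusted p = 4.11e-07) and SOCS3 (0.94 ± 0.19, adjusted p = 0.000850). Of 14 tested factors of class I promoters, NLRC5 among them, 3 rose and 1 fell in the triple knockout (all genes 20.3% and 19.8%). Against wild type none was called in the double knockout, beside 8.37% of all genes higher and 8.35% lower. The share that rose in the triple knockout was near that of all genes. IRF2 rose by 0.63 ± 0.15 (adjusted p = 0.00296) and NFYC, a subunit of the Y box factor, by 0.53 ± 0.10 (adjusted p = 0.000395), while RFXANK, a subunit of the X box factor, fell by 0.44 on the log2 scale (SE 0.13, adjusted p = 0.0165).

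Of 12 genes tested in the class II pathway, which presents outside proteins, 0 rose and 3 fell in the triple knockout (all genes 20.3% and 19.8%), 2 rose and 0 fell in the double knockout (8.37% and 8.35%), and 0 rose and 4 fell in the AGO1 knockout (3.17% and 5.50%). The share that fell in the triple knockout was near that of all genes. HLA-DQB1 (−2.15 ± 0.40, adjusted p = 0.000463), HLA-DRA (−1.04 ± 0.35, adjusted p = 0.0273) and HLA-DMA (−0.84 ± 0.18, adjusted p = 0.00185) were those that fell in the triple knockout. CD74, the invariant chain, rose in the double knockout from 0.114 to 0.426 CPM (1.86 ± 0.43, adjusted p = 0.00645). Of 15 genes listed as regulators of class I transcripts or surface molecules, 11 rose and 0 fell in the triple knockout (all genes 20.3% and 19.8%), and 3 and 0 in the double knockout (8.37% and 8.35%). The 11 include CD274, which encodes the checkpoint ligand PD-L1, and CMTM6, which is known for stabilising PD-L1. MARCHF4, a ubiquitin ligase that removes class I from the surface, averaged 0.0309 CPM in wild type and 1.73 CPM in the triple knockout (adjusted p = 4.78e-06). UGCG and B4GALT5, enzymes of glycosphingolipid synthesis, rose by 1.87 ± 0.16 (adjusted p = 3.12e-07) and 1.12 ± 0.10 (adjusted p = 5.25e-07), and CMTM6 by 0.98 ± 0.09 (adjusted p = 7.05e-07).

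**Figure D4:**
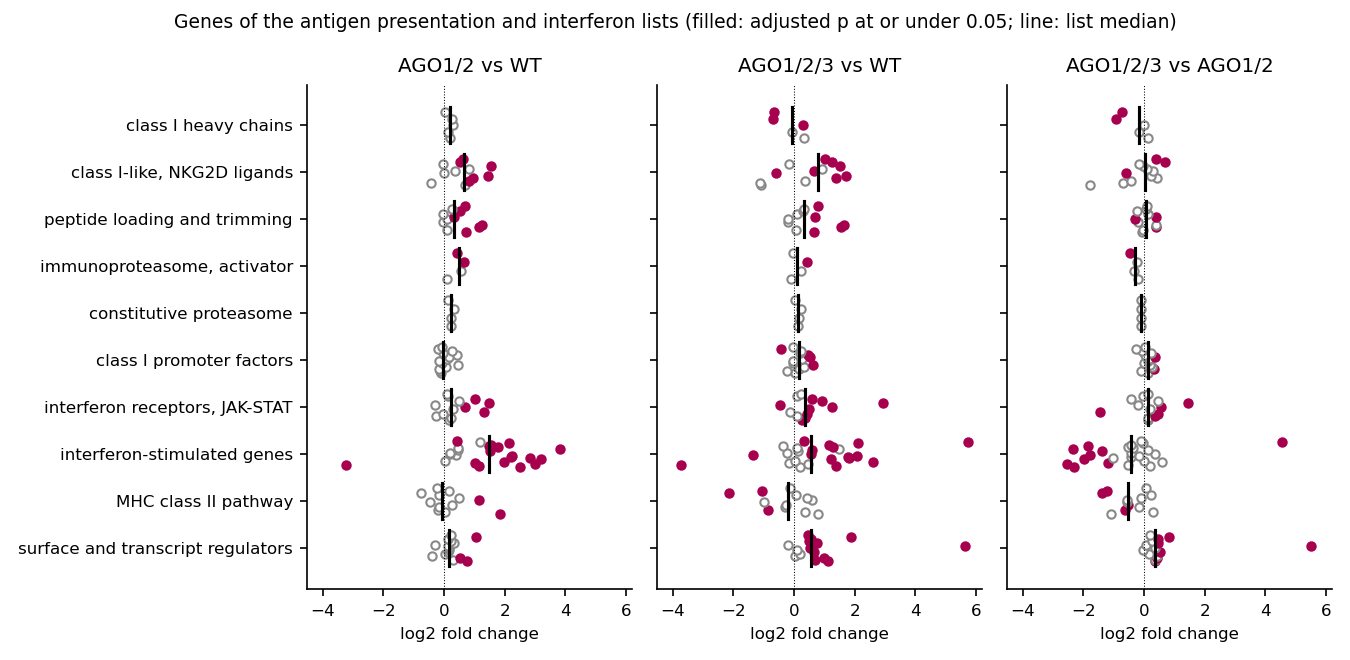
Log2 fold changes (x axes) of the genes tested in 10 lists around class I presentation (rows), for AGO1/2 and AGO1/2/3 against wild type and AGO1/2/3 against AGO1/2; filled points have an adjusted p at or under 0.05 and vertical lines are list medians. The median of the 24 interferon-stimulated genes was 1.49 on the left, 0.57 in the middle and −0.43 on the right.

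The 9 genes split into groups when compared with one another over the 15 libraries, which share lines and sequencing depth. HLA-E and HLA-F moved together (Pearson r = 0.89 of log2 CPM, n = 15), TAPBP moved with B2M (r = 0.91), and NLRC5 moved with HLA-C (r = 0.87), TAP1 (r = 0.81) and TAPBP (r = 0.81) but not with HLA-E (r = 0.01). Among the 16083 genes that averaged 1 CPM or more, those most like NLRC5 were LGALS9 (r = 0.927), SNX21 (r = 0.919) and RXRA (r = 0.918). The closest to B2M were CITED2 (r = 0.970), PCYOX1 (r = 0.955) and ARL6IP5 (r = 0.951), and among the closest to TAPBP were MAN2B2 (r = 0.989) and SLC16A13 (r = 0.975).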

How the data were processed

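The 15 RNA-seq libraries, 3 per line, were analysed. The authors used STAR and Salmon on hg38 (versions 2.5.3a and 0.11.0 in the submitters' notes, others in the study's methods) and deposited 1 table of estimated counts per gene and library. These were rounded, filtered with filterByExpr, scaled by TMM and tested with edgeR 4.0.16 (glmQLFit and glmQLFTest, R 4.3.3) in 1 model with a mean per line. P-values were adjusted by Benjamini-Hochberg over all genes tested and called at 0.05. Standard errors are unshrunk log2 fold changes over the square root of F. Alternatives were DESeq2 1.42.0, other scaling and filters, a replicate block, only the lines compared, each library left out, and, chosen after seeing the data, no AGO2 knockout line. Symbols, coordinates and transcripts came from GENCODE 44, in which 57167 of 57875 identifiers matched. On counts simulated for the triple knockout comparison, edgeR recovered 70 of 100 genes changed 2-fold and 95 of 100 changed 4-fold, with 10 calls among the unchanged genes. Only these genes of 22842 were changed, drawn from those above a minimum mean count. In the data 20.3% and 19.8% of genes were called there, and members called rose up to 1.73-fold or fell to 62.2% at the lowest. These recovery rates therefore do not describe the calls reported for the members. All 9 members were named, and from each of 10 lists up to 4 called genes with the largest change in the triple knockout, then in another line against wild type. A few genes and the results that need them are not reported here. The members and lists were chosen with earlier results of these data known.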

Additional observations from a re-analysis of the deposited data

Results flagged for a closer look

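The 4 genes below stand here because the change that went with AGO2 loss differed between cells with and without AGO1, by the interaction test of edgeR, each from 3 replicates per line. The difference was 1.0 on the log2 scale for TAPBP, whose level was up in the double knockout and level in the AGO2 knockout. It was 0.85 for HLA-C, which fell in the AGO2 knockout against wild type and rose from the AGO1 to the double knockout. It was 0.95 for NLRC5, which rose from the AGO1 to the double knockout and was not called in the AGO2 knockout. It was 0.88 for HLA-F.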

How the results depend on the processing

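Of 72 values (9 genes in 8 comparisons), 25 were called, 14 of these under every setting tried for them (24 with the one reported, less the fit without the AGO2 knockout line for comparisons that use it), and none of the 25 changed direction. Scaling by library total alone shifted the median of all genes to −0.14 in the AGO2 and −0.15 in the triple knockout against wild type, and to 0.17 in the interaction. With it, 1 gene was called lower in the AGO1 knockout and 2 higher in the triple knockout, where 2 were also called with no filter, with at least 10 counts in every library and in a fit of only the lines compared; that last fit called 1 higher in the double knockout and 3 against the AGO1 knockout. Leaving out 1 library gave 0 to 1 genes lower in the AGO1 knockout, 0 to 1 higher and 0 to 1 lower in the AGO2 knockout, 1 to 4 higher in the double knockout, 2 to 5 higher and 1 to 2 lower in the triple knockout, 3 to 6 and 3 to 7 higher in the double knockout than in the AGO1 and AGO2 knockouts, and 1 to 2 lower in the triple than in the double knockout. Uncalled values near 0 changed sign. With library-total scaling these were TAPBP in the AGO2 knockout (−0.07), HLA-F in the double knockout (−0.05), TAP2 against the AGO2 knockout (0.02), HLA-C (−0.04) and NLRC5 (−0.03) from double to triple knockout, and the TAP2 interaction (0.13). With no filter they were TAP2 in the AGO1 knockout (0.00), TAP1 in the AGO2 knockout (0.01) and HLA-C from double to triple knockout (−0.00), whose value was −0.02 with at least 10 counts and −0.01 in the lines compared, and NLRC5 with at least 10 counts gave −0.01. With 1 library left out, ranges crossing 0 were, in the AGO1 knockout, −0.18 to 0.07 for B2M, −0.15 to 0.12 for TAP1 and −0.08 to 0.07 for TAP2. In the AGO2 knockout they were −0.18 to 0.09 for TAP1 and −0.13 to 0.13 for TAPBP, in the double knockout −0.07 to 0.09 for HLA-F, and in the triple knockout −0.23 to 0.05 for HLA-B. They were −0.13 to 0.07 for HLA-B and −0.22 to 0.09 for TAP2 between the double knockout and the AGO1 and AGO2 knockouts, and −0.07 to 0.05 for HLA-C, −0.08 to 0.28 for TAP2 and −0.16 to 0.16 for NLRC5 from double to triple knockout. The TAP2 interaction ranged from −0.20 to 0.09. The cause of these changes was not tested.

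Libraries with the same replicate number showed no common shift over all genes: their deviations correlated at −0.218 to 0.291 (mean −0.00669, 30 pairs). The 60 other pairs ranged from −0.364 to 0.344 (mean 0.00333). Deviations were taken from the mean of each line, which ties these 2 means, so the other pairs are not a separate comparison. With the replicate number as a block, NLRC5 in the triple knockout (0.44, adjusted p = 0.0537) and the HLA-F interaction (0.89, adjusted p = 0.0534) were no longer called, and genes called higher there numbered 3 and 3. Without the AGO2 knockout line, chosen after seeing the data, TAP1 in the double knockout (0.52, adjusted p = 0.0510) and NLRC5 in the triple knockout (0.45, adjusted p = 0.0578) were not called. Counts over all genes depended on the fit too: the AGO2 knockout called 1952 higher, and 733 with library-total scaling, 528 in the lines compared and 389 without AGO2 knockout replicate 2. The AGO1 knockout called 725 higher and 1257 lower, 219 and 439 in the lines compared, 389 and 575 without AGO1 knockout replicate 2, and 1985 lower with library-total scaling. The AGO2 knockout called 2456 lower, and 1340 in the lines compared and 1140 without its replicate 2. The double knockout called 1913 and 1907, and 927 and 1189 in the lines compared. The interaction called 1887 in the negative direction, and 1228 with library-total scaling.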
